A study of Mus musculus with 12 samples.

Results

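The transcriptional effect of RHC80267, an inhibitor of diacylglycerol lipase, was examined in mouse osteoclast precursors stimulated with RANKL. Of the 16570 genes in the deposited table, the 12168 that passed a filter on low counts were compared between 3 libraries that received RHC80267 with RANKL and 3 libraries that received RANKL alone, out of 12 libraries in the series. The cells were mononuclear cells from the bone marrow of C57BL/6J mice aged 6 to 8 weeks, grown into macrophages with M-CSF, the growth factor on which macrophages depend. All 6 cultures then received 50 ng/mL M-CSF and 100 ng/mL RANKL for 2 days, and the RHC80267 cultures received 1 μM of the inhibitor in addition. Reference groups of 3 libraries each received 50 ng/mL M-CSF alone, or M-CSF, RANKL and 1 μM BMS309403, which blocks the fatty acid carrier FABP4, for the same time. The labels name no vehicle for the RANKL group and do not say whether the libraries of a group came from separate mice or cultures. The p-values therefore measure the spread between these libraries, which may be technical.

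Diacylglycerol lipases alpha and beta cut diacylglycerol, a membrane lipid that also activates protein kinase C, into a monoacylglycerol such as the endocannabinoid 2-arachidonoylglycerol, which is in turn a source of arachidonic acid for prostaglandins. RHC80267 also acts on other serine hydrolases. RANKL binds RANK on macrophages and, through TRAF6, NF-κB, c-Fos and the master regulator NFATc1, turns them into bone-resorbing osteoclasts. Macrophages also maintain a low autocrine interferon signal, in which type I interferon acts through the transcription factor complex ISGF3, and interferon is a known brake on osteoclast formation.

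With RHC80267, interferon-induced and antigen presentation genes were lower and genes of the mature osteoclast were higher than with RANKL alone. The genes with the steepest falls included neighbouring members of the Ifit family, which block viral RNA translation, and the chemokine gene Cxcl10. ISGF3 binds the interferon-stimulated response element, so the promoters of 6 genes that fell are shown because each holds the core of that element, GAAANNGAAA, or on the other strand TTTCNNTTTC, in capitals. The stretches are read from RefSeq (GRCm38.p6), 5′ to 3′ on the strand of the gene. They come from chr19:34583343-34583446 (Ifit3, + strand), chr19:34640755-34640843 (Ifit1, + strand), chr5:92349063-92349132 (Cxcl10, - strand), chr1:173673577-173673646 (Ifi208, + strand), chr5:120777695-120777764 (Oas3, - strand) and chr4:156200845-156200926 (Isg15, - strand), all upstream of the annotated start of transcription.
Ifit3: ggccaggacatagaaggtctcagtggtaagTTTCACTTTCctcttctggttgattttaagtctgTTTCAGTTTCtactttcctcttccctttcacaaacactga
Ifit1: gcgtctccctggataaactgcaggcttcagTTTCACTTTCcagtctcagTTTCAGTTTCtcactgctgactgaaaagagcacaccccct
Cxcl10: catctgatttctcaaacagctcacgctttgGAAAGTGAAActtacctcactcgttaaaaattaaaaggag
Ifi208: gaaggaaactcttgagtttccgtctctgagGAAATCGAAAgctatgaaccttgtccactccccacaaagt
Oas3: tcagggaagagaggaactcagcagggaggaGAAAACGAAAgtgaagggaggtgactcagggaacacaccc
Isg15: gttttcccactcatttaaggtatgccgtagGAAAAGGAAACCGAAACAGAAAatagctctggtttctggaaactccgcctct
Ifit3 and Ifit1 each carry 2 such cores, and the 3 overlapping cores of Isg15 run together. The Ifit3 stretch has the same letters as that of its neighbour Ifit3b, and the Ifi208 stretch the same as that of Ifi213, so these are copies and not separate examples.

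The motif was searched on both strands of 300 bases per RefSeq promoter, 250 before and 50 after the start, for the 9825 tested genes with a promoter in the table (12535 promoters). It was present in 3.26% of all promoters, in 18.5% of the promoters of genes that fell by more than 2-fold, and in 30.8% of those that fell by more than 4-fold. Among genes that rose by more than 2-fold it was present in 3 of 213 promoters (1.41%), too few to set against the share of all promoters. The gamma-activated site core, TTCNNNGAA, an element known from genes induced by interferon gamma, was present in 6.78% of all promoters, 10% of those of genes that fell by more than 2-fold and 8.92% of those that rose by more than 2-fold. Matches to both motifs overlapped in 12 promoters. A match is a run of letters and not a measured binding site, and neighbouring gene copies share promoter letters.

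**Figure D1:**
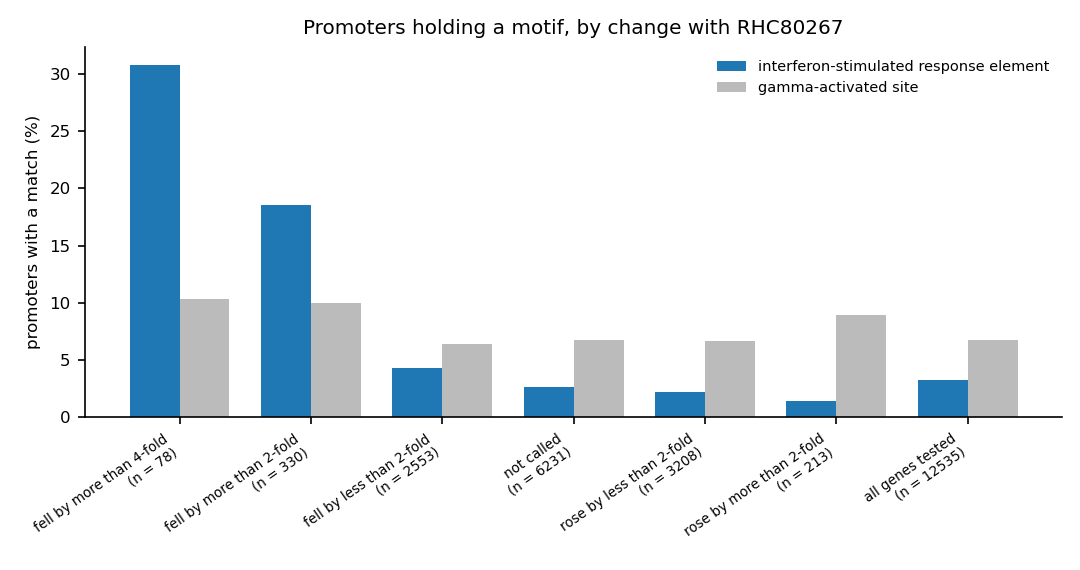
Share of promoters (%, vertical axis) that hold the core of the interferon-stimulated response element (blue) or of the gamma-activated site (grey), with genes grouped by their change with RHC80267 and the number of promoters in each group below it. The group over 4-fold is contained in the group over 2-fold; the blue share is 30.8% and 18.5% in these, against 3.26% of all promoters, and the grey share stays between 6.38% and 10.3% in every group.

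Each of the 6 libraries held between 17760844 and 18145377 expected counts, so depth was nearly equal. The groups separated along the first principal component, which held 72.9% of the variance. RHC80267 replicate 1 stood apart from replicates 2 and 3 on the second (8.49%). Levels below are CPM, the counts of a gene per 1000000 counts of its library, and changes are log2 fold changes with their standard errors. Adjusted p-values come from edgeR's quasi-likelihood test with Benjamini-Hochberg adjustment over the 12168 genes, and genes under 0.05 are called. Each standard error was derived from that test, as the size of the change divided by the square root of its F statistic. By this rule 6074 genes (49.9%) were called, of which 3272 (26.9% of those tested) rose and 2802 (23%) fell. The balance depended on the fit: with only the compared groups in it, 2943 genes were called higher and 3093 lower. The median size of a change over all genes tested was 0.18 on the log2 scale. More than 2-fold, 203 genes rose (1.67%) and 358 fell (2.94%), and more than 4-fold 25 rose and 91 fell. The 3 libraries of one group lay entirely outside the range of the other in 7043 genes (57.9%). A count within a gene list is to be read against these shares, and a list's median against the median of all genes, 0.02. The share of genes called rose with level, from 18% of genes below 1 CPM to 68.6% of genes of at least 1000 CPM, so small changes were detectable mainly in abundant genes. At q below 0.05 the authors' deposited table has 2140 genes higher and 2364 lower.

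**Figure D2:**
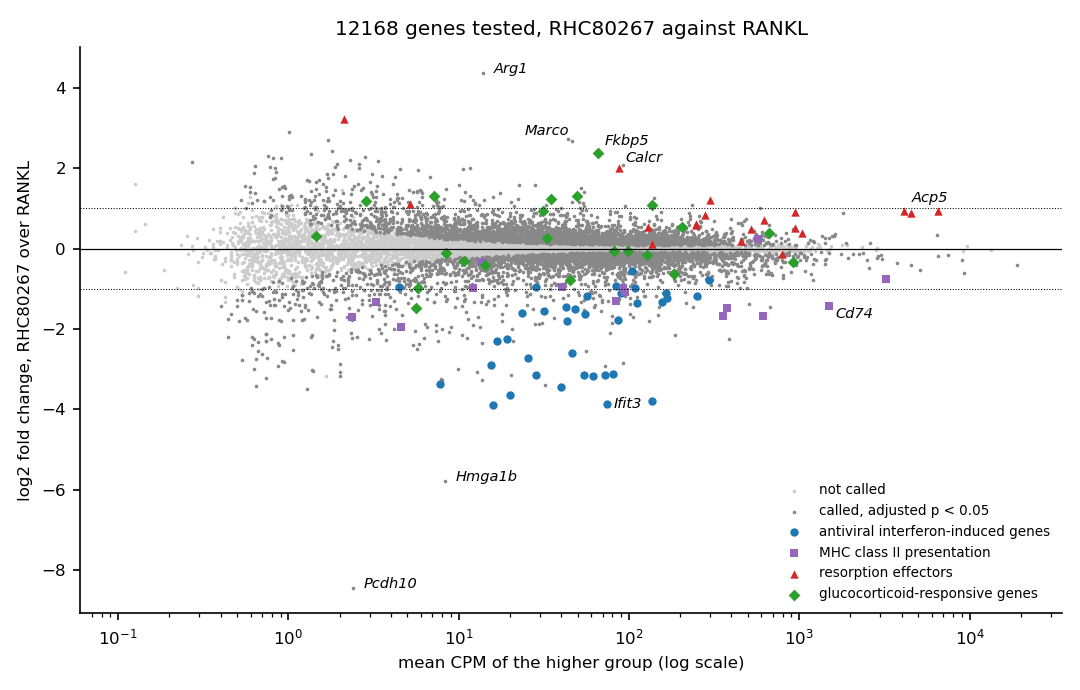
Log2 fold change, RHC80267 over RANKL (vertical axis), against the mean CPM of the higher group (horizontal axis, log scale) for the 12168 genes tested, with members of 4 gene lists in colour and dotted lines at 2-fold. The antiviral interferon-induced genes (blue circles) all lie below 0 and 18 of the 19 resorption effectors (red triangles) above it; the fitted value of Pcdh10, which had 0 counts with RHC80267, depends on the fit and is not a measured fold.

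Of the interferon pathway's receptors and factors, 12 of 20 genes fell and 2 rose (median -0.26). Irf7, the factor that amplifies type I interferon production, had 94.1, 96.9 and 85.3 CPM with RANKL and 12.5, 15 and 10.9 CPM with RHC80267. It fell by 2.85 ± 0.10 on the log2 scale (adjusted p = 5.44e-15), with no overlap between the groups. Usp18, which dampens the type I receptor and is itself interferon-induced, had 19.5 to 22.3 CPM with RANKL and 4.20 to 4.29 CPM with RHC80267 and fell by 2.30 ± 0.10. Of the ISGF3 genes, Stat2 fell by 1.17 ± 0.07 and Irf9 by 0.81 ± 0.06. The receptor chain Ifnar1 fell less, by 0.38 ± 0.04, and the kinase Jak2 by 0.54 ± 0.06. Jak1 (-0.08 ± 0.04, adjusted p = 0.105), Tyk2 (0.04 ± 0.04, adjusted p = 0.411) and the interferon gamma receptor gene Ifngr1 (-0.09 ± 0.04, adjusted p = 0.0597) did not pass the test. Against the direction of the list, Irf3, the sensor-activated factor of the first interferon wave, rose by 0.39 ± 0.05, and the feedback inhibitor Socs3 rose by 0.71 ± 0.16. Ifnb1, the gene of interferon beta, was too low to test, with 1 count over the 3 RANKL libraries and 0 over the RHC80267 libraries.

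Of the antiviral list of 40 genes 36 were tested and all 36 fell, with a median of -1.69 and a range from -3.90 to -0.55. Isg15, a ubiquitin-like protein joined to other proteins, had 30.2, 28.6 and 26.8 CPM with RANKL and 3.12, 3.11 and 3.42 CPM with RHC80267. Its libraries did not overlap and it fell by 3.15 ± 0.12 (adjusted p = 8.68e-15). Rsad2, the antiviral enzyme viperin, had 65.4 to 77.2 CPM with RANKL and 7.38 to 8.61 CPM with RHC80267 and fell by 3.14 ± 0.11. Ifit2 had 144, 147 and 117 CPM with RANKL and 10.3, 11.8 and 7.22 CPM with RHC80267 and fell by 3.79 ± 0.15. Ifit1 fell by 3.45 ± 0.14 and Ifit1bl1 by 3.64 ± 0.16, and the copies Ifit3 and Ifit3b by 3.87 ± 0.16 and 3.90 ± 0.22. Ifi44, an interferon-induced gene, fell by 3.38 ± 0.19 from 7.44 to 8.12 CPM to 0.597 to 0.817 CPM. Rtp4, an interferon-induced chaperone of receptors, fell by 3.16 ± 0.11 from 55.3 to 67.9 CPM down to 5.70 to 7.79 CPM. The oligoadenylate synthetases, which activate RNase L on viral RNA, differed in size of change. Oas3 fell by 3.15 ± 0.11, Oas1g by 2.29 ± 0.14, Oas1a by 1.77 ± 0.07, Oas2 by 1.62 ± 0.08 and Oas1c by 0.95 ± 0.15. The cytosolic RNA sensors fell by less than the Ifit genes: Ddx58 (RIG-I) by 1.36 ± 0.07 and Ifih1 (MDA5) by 1.17 ± 0.07. The smallest fall of the list was that of Parp12, 0.55 ± 0.06. Outside the list, Rnf213, a large interferon-responsive ubiquitin ligase, fell by 1.37 ± 0.08 from 456 to 554 CPM to 188 to 206 CPM.

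The nuclear DNA-binding IFI200 proteins and the Schlafen proteins, which restrain growth and viral translation, had 18 tested members and all 18 fell (median -1.46). Slfn5, a growth-restraining Schlafen protein, had 379, 425 and 356 CPM with RANKL and 81.0, 89.0 and 74.9 CPM with RHC80267. It fell by 2.24 ± 0.08 (adjusted p = 3.58e-15). Aim2, the inflammasome sensor of DNA, fell by only 0.42 ± 0.05. The guanylate-binding proteins and immunity-related GTPases, which attack vacuoles of intracellular pathogens, fell in 16 of 16 tested members (median -1.72). Iigp1 fell by 3.06 ± 0.21, from 10.2 to 14.4 CPM with RANKL to 1.24 to 1.74 CPM with RHC80267, and Gbp2 by 2.56 ± 0.12. Gbp7 fell by 0.57 ± 0.08. The core of the interferon-stimulated response element was in the promoters of 17 of 29 antiviral genes with a promoter, 11 of 17 IFI200 and Schlafen genes and 9 of 10 GTPase genes, against 3.98% of all genes tested that have a promoter. Other lists were searched in which most called genes fell. This core was in 3 of 18 interferon receptor and factor genes, 5 of 17 MHC class I genes and 2 of 14 chemokine genes. It was in 1 of 10 MHC class II genes and 1 of 16 cholesterol synthesis genes. Among risen or split lists it was in 2 of 14 resorption effectors, 2 of 17 glucocorticoid-responsive genes and 2 of 25 oxidative phosphorylation genes. The gamma-activated site core was in 8.16% of all genes with a promoter. It was in 6 of 10 GTPase, 6 of 29 antiviral and 0 of 17 IFI200 and Schlafen genes. It was in 6 of 18 interferon receptor and factor, 6 of 17 glucocorticoid-responsive and 2 of 17 MHC class I genes.

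Genes that fell lay beside each other on the chromosomes. Of 311 genes with a position that fell by more than 2-fold, 84 (27.0%) had another such gene as the tested gene just before or just after, against 4.53% of all other genes. The longest run was Ifit2, Ifit3, Ifit1bl1, Ifit3b, Ifit1bl2 and Ifit1 at chr19:34550550-34662981, with a median of -3.72. Gbp8, Gbp9, Gbp4 and Gbp6 at chr5:105012513-105295871 had a median of -2.01, and the monocyte chemokine genes Ccl2, Ccl7 and Ccl12 at chr11:82035577-82103399 a median of -1.94. These positions are those of the deposited table and equal RefSeq's for GRCm38.p6. Neighbours in these families are gene copies whose reads can be shared, so single values within a family are less certain than the family's. For genes that rose by more than 2-fold, 24 of 191 (12.6%) had such a neighbour, against 3.11% of the others.

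Interferon-induced genes were higher, not lower, with the FABP4 inhibitor. BMS309403 and RHC80267 share the RANKL libraries as reference, so their values are given side by side and the inhibitors were also compared directly. Against RANKL, BMS309403 called 425 genes higher (3.49%) and 455 lower (3.74%), while 6759 genes (55.5%) were called between RHC80267 and BMS309403. With BMS309403, 34 of the 36 antiviral genes rose and none fell (median 0.38), where all 36 fell with RHC80267. Isg15 had 42.7, 48.3 and 41.7 CPM with BMS309403, above the 26.8 to 30.2 CPM of RANKL and the 27.2 to 35.5 CPM of M-CSF alone. The difference of RHC80267 from BMS309403 in Isg15 was -3.78 on the log2 scale (adjusted p = 1.43e-16). In that direct comparison 36 of 36 antiviral, 18 of 18 IFI200 and Schlafen and 16 of 16 GTPase genes were lower with RHC80267. The plot of levels in all 12 libraries shows RHC80267 lowest, RANKL next and BMS309403 above RANKL for Ifit3, Isg15, Irf7 and Cxcl10.

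**Figure D3:**
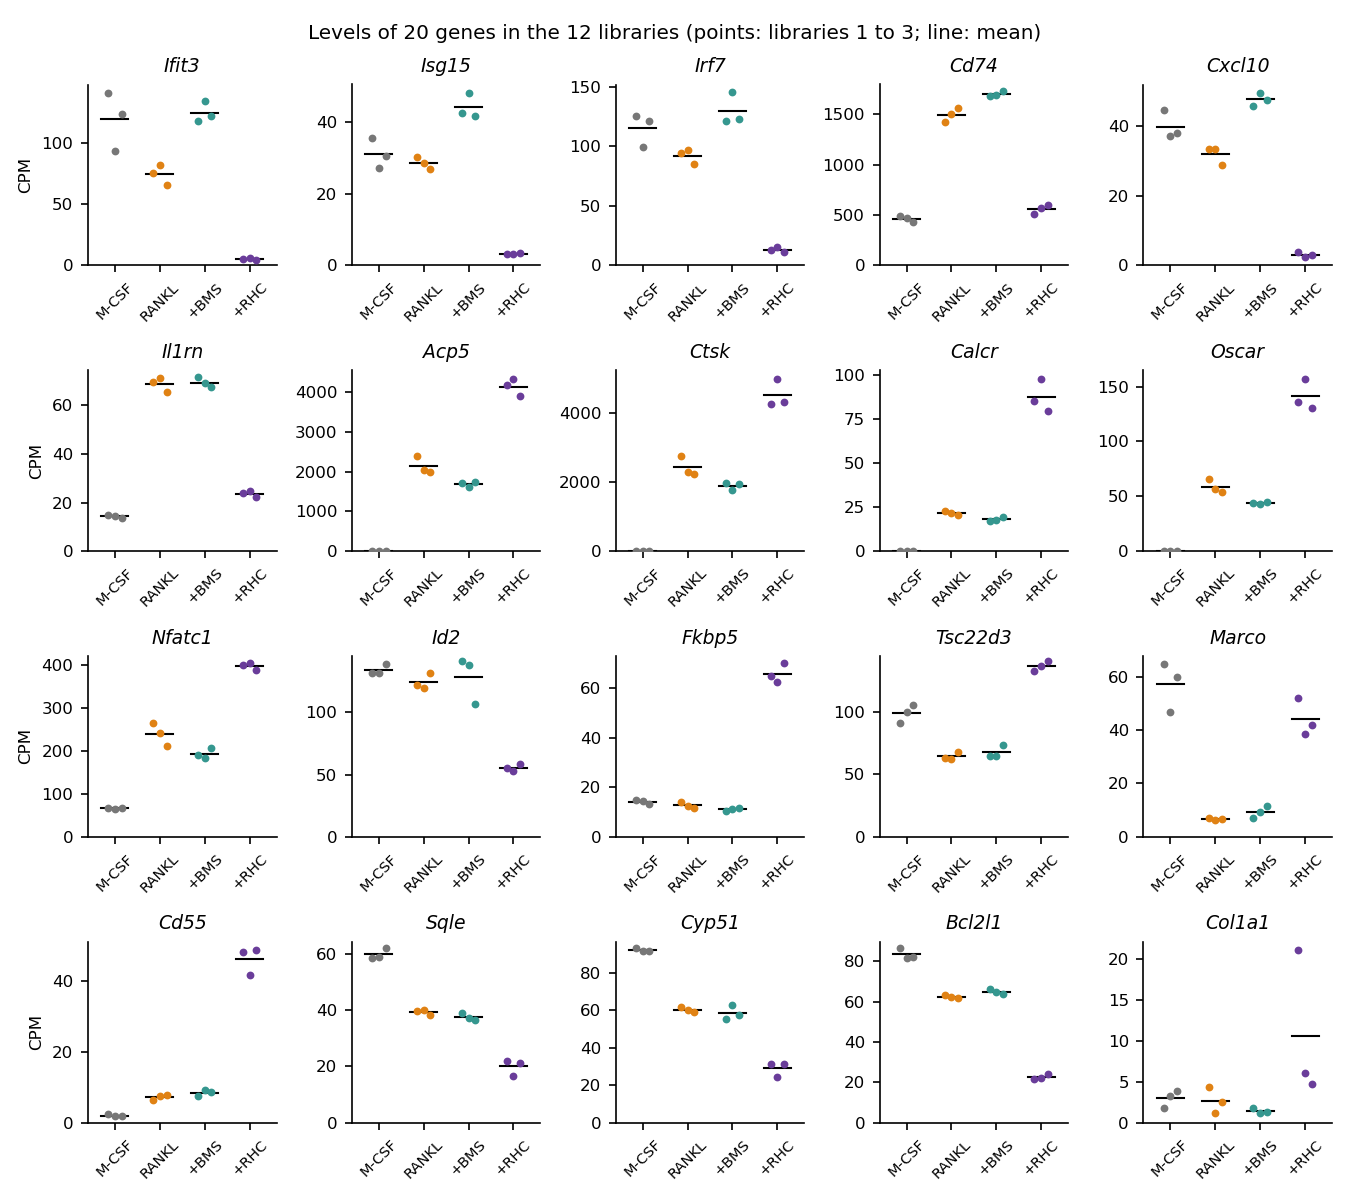
CPM (vertical axis, from 0) of 20 genes in the 12 libraries, in the groups M-CSF, RANKL, RANKL with BMS309403 (+BMS) and RANKL with RHC80267 (+RHC); each point is a library and each line a mean of 3. Isg15 sits at 3.11 to 3.42 CPM with RHC80267 and above 26 CPM in every other library, Calcr at 79.2 to 97.6 CPM against at most 22.9 CPM elsewhere, and Col1a1 is high in only 1 RHC80267 library.

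Genes of antigen presentation fell as well. Of 15 tested genes for MHC class II, which shows peptides to helper T cells, 14 fell and 1 rose (median -1.3). H2-Aa, an MHC class II chain, had 596, 614 and 618 CPM with RANKL and 187, 192 and 190 CPM with RHC80267, and fell by 1.68 ± 0.07 (adjusted p = 1.49e-14). The groups did not overlap, and the M-CSF libraries held 168 to 231 CPM. H2-Eb1 fell by 1.68 ± 0.05, from 352 to 364 CPM with RANKL to 108 to 114 CPM, and H2-Ab1 by 1.47 ± 0.05. The invariant chain gene Cd74 had 1420 to 1560 CPM with RANKL and 505 to 600 CPM with RHC80267 (a fall of 1.42 ± 0.06). The class II master regulator Ciita fell by 0.95 ± 0.08, from 40.2 to 40.8 CPM to 19.4 to 22 CPM. The peptide-loading genes H2-DMa and H2-DMb1 fell by 0.98 ± 0.05 and 1.08 ± 0.05, and the costimulator Cd86 fell from 82.4 to 87.3 CPM to 33.4 to 34.9 CPM. Ifi30, a lysosomal thiol reductase, rose by 0.23 ± 0.04 (adjusted p = 8.89e-05). BMS309403 raised 4 of these 15 genes and lowered 1, Ifi30. Of the class I and immunoproteasome genes 19 of 20 fell (median -0.44), among them B2m by 0.37 ± 0.05 and the proteasome subunit Psmb8 by 0.32 ± 0.04. The peptide transporter gene Tap2 rose by 0.17 ± 0.05, a call that was lost without RANKL replicate 3 (0.14) or RHC80267 replicate 3 (0.15), which left 0 class I genes higher.

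Secreted and sensing genes of inflammation were mostly lower. Of 20 tested chemokine genes 12 fell and 2 rose (median -0.71). Only 1 rose in the fits without RANKL replicate 1, RANKL replicate 2 or RHC80267 replicate 2, and in the risen Ccl6 (0.23 ± 0.08) the groups overlapped. Cxcl10, which draws T cells, had 33.6, 33.4 and 28.9 CPM with RANKL and 3.72, 2.51 and 2.88 CPM with RHC80267. Ccl2, which draws monocytes, fell by 1.94 ± 0.21, while Pf4, a platelet chemokine also made by macrophages, rose by 0.46 ± 0.05. Of 23 cytokine and NF-κB response genes 14 fell and 3 rose (median -0.50). Il1rn, the receptor antagonist of interleukin 1, fell by 1.54 ± 0.05 from 65.6 to 71.5 CPM with RANKL to 22.3 to 24.9 CPM (adjusted p = 2.92e-15). Tnf fell from 8.03 to 9.17 CPM to 3.15 to 4.04 CPM, and Tnfsf10, the death ligand TRAIL, fell by 2.00 ± 0.19. Nfkbiz, a nuclear regulator of NF-κB, rose by 0.74 ± 0.09. Of 19 Toll-like receptor pathway genes 14 fell and 1 rose, with Tlr4 down by 0.60 ± 0.04 and its co-receptor Cd14 by 0.79 ± 0.05. The risen member was the kinase Irak4 (0.20 ± 0.05), and 2 members rose in the fit without RHC80267 replicate 3.

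Osteoclast genes moved the other way. Of 19 tested resorption effectors, which dissolve mineral and collagen, 18 rose and 1 fell (median 0.71). Calcr, the calcitonin receptor of mature osteoclasts, had 22.9, 21.8 and 20.4 CPM with RANKL and 85.0, 97.6 and 79.2 CPM with RHC80267. It rose by 2.01 ± 0.07 (adjusted p = 3.74e-15), and the M-CSF libraries had at most 0.0562 CPM. Itgb3, the beta 3 chain of the integrin that anchors osteoclasts to bone, rose by 1.22 ± 0.08, from 115 to 143 CPM to 280 to 330 CPM. Ckb, the creatine kinase that supplies ATP for acid secretion, rose by 0.92 ± 0.05, and the sodium-proton antiporter Slc9b2 by 0.83 ± 0.07. The chloride-bicarbonate exchanger Slc4a2 rose by 0.61 ± 0.06 and carbonic anhydrase Car2 by 0.55 ± 0.08. Cthrc1, a secreted factor of resorbing osteoclasts, was low but rose by 3.23 ± 0.32, from 0.164 to 0.280 CPM with RANKL to 1.85 to 2.33 CPM with RHC80267. The abundant effectors Acp5, the tartrate-resistant phosphatase, and Ctsk, the collagenase cathepsin K, rose by 0.95 ± 0.05 and 0.90 ± 0.08 from at most 2390 and 2760 CPM to at least 3900 and 4250 CPM. Rab7, a GTPase of late endosomes, fell by 0.14 ± 0.03.

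BMS309403 left none of the 19 resorption effectors higher and lowered 8, and 18 of 19 were higher with RHC80267 than with BMS309403. Of the proton pump subunits 13 of 18 rose and 1 fell (median 0.20). Within the a-subunit family, Tcirg1, the osteoclast form, rose by 0.39 ± 0.04 while the broadly expressed Atp6v0a1 fell by 0.42 ± 0.04 (173 to 184 CPM with RHC80267 and 222 to 256 CPM with RANKL). Atp6v0a2 did not pass the test (0.04 ± 0.04, adjusted p = 0.508). Among 14 genes of cell fusion, 8 were called higher and 5 lower. Siglec15, a sialic acid receptor of multinucleating cells, rose by 0.84 ± 0.07 from 30.8 to 36.5 CPM to 56.7 to 61.6 CPM, and Ocstamp, a fusion protein, by 0.78 ± 0.06. The hyaluronan receptor Cd44 fell by 0.62 ± 0.04, the tetraspanin gene Cd9 by 0.36 ± 0.05 and Cd47 by 0.35 ± 0.04. In bulk RNA, more cells of a type and more RNA per cell cannot be told apart.

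**Figure D4:**
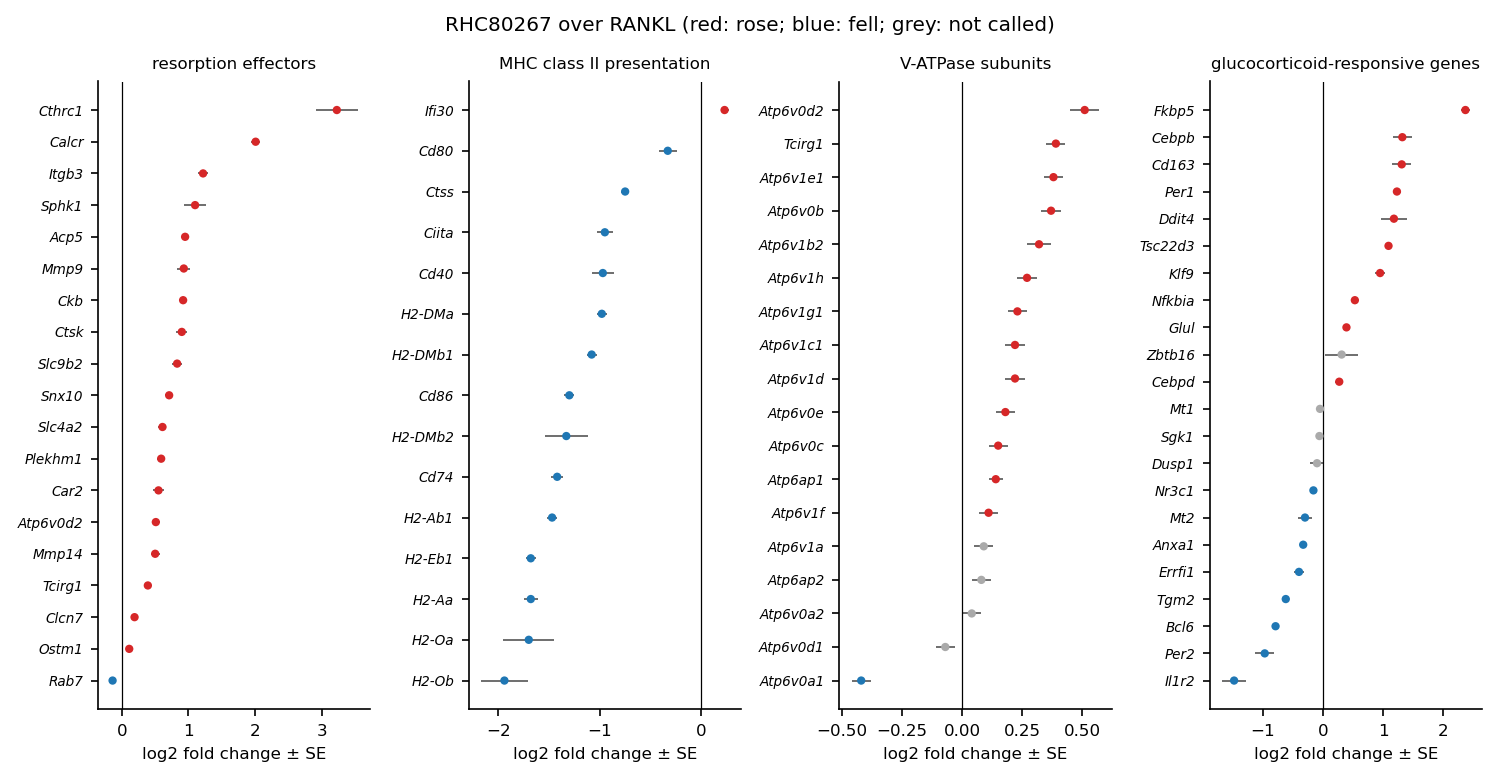
Log2 fold change ± SE, RHC80267 over RANKL (horizontal axes, which differ in range), of the tested members of 4 gene lists, with genes called higher in red, called lower in blue and not called in grey. Resorption effectors lie to the right of 0 except Rab7, MHC class II genes to the left except Ifi30, Atp6v0a1 is the only proton pump (V-ATPase) subunit called lower, and glucocorticoid-responsive genes lie on both sides.

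Activators of osteoclast formation mostly rose and repressors mostly fell. Of 19 activating transcription factors 11 rose and 4 fell (median 0.21), or 2 without RANKL replicate 2. The 4 that fell were Pparg, Tfe3, Tfeb and Nfkb1, with Tfe3 down by 0.23 ± 0.04 (adjusted p = 4.67e-05). Nfatc1 rose by 0.73 ± 0.06, with 265, 241 and 212 CPM in the RANKL libraries and 399, 403 and 387 CPM in the RHC80267 libraries. Fosl2, an AP-1 factor, rose by 0.68 ± 0.06 from 266 to 335 CPM to 462 to 499 CPM. Ppargc1b, a coactivator that drives mitochondrial biogenesis in osteoclasts, rose by 0.68 ± 0.05 from 50.8 to 57.3 CPM to 81.2 to 93.2 CPM. Its partner Esrra rose by 0.51 ± 0.05. Fos rose by 0.20 ± 0.05 with overlapping groups, and Jun, Spi1 and Relb did not pass the test (adjusted p = 0.781, 0.61 and 0.194). Of 16 repressors 10 fell and 1 rose (median -0.47), or 2 rose without RANKL replicate 3 or RHC80267 replicate 1. Id2, which blocks helix-loop-helix factors such as MITF, had 122, 120 and 132 CPM with RANKL and 55.5, 52.6 and 58.2 CPM with RHC80267. It fell by 1.17 ± 0.07 (adjusted p = 3.14e-11), with no overlap. Rbpj, the Notch effector, fell by 0.78 ± 0.05 and Bcl6 by 0.79 ± 0.06. Irf8, which holds precursors in the macrophage state, did not pass the test (0.10 ± 0.04, adjusted p = 0.0537), and was called higher at 0.14 without RANKL replicate 3 or RHC80267 replicate 1. Tnfaip3, the NF-κB inhibitor A20, rose by 0.26 ± 0.06.

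The early RANK pathway showed no common direction. Of 20 receptor and adaptor genes 6 rose and 7 fell, and the fallen ones were 4 without RANKL replicate 2 and 3 without RHC80267 replicate 1. Traf6 rose by 0.26 ± 0.05 and the kinase gene Src by 0.56 ± 0.05, while Chuk fell by 0.25 ± 0.04. ITAM co-receptors supply the calcium signal for NFATc1. Of 20 genes of these co-receptors, their kinases and other signalling proteins, inhibitors among them, 10 fell and 3 rose. Oscar, the collagen-binding receptor of osteoclasts, had 65.4, 56.5 and 54.1 CPM with RANKL and 136, 157 and 130 CPM with RHC80267, and rose by 1.27 ± 0.07 (adjusted p = 1.02e-12). Trem2 fell by 0.35 ± 0.04 and its adaptor gene Tyrobp by 0.25 ± 0.04. Of 23 podosome and actin ring genes 10 rose and 6 fell, with Cttn, the podosome protein cortactin, up by 1.08 ± 0.09 from 13.8 to 17.6 CPM to 32.3 to 33.1 CPM.

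The targets of the inhibitor and the lipids around them were examined next. Dagla, 1 of the 2 diacylglycerol lipase genes, had 10.9, 11.2 and 9.35 CPM with RANKL and 6.62, 6.27 and 6.79 CPM with RHC80267, without overlap, and fell by 0.68 ± 0.11 (adjusted p = 1.88e-05). Daglb, with 77.5 to 81.3 CPM with RANKL and 71.3 to 74.3 CPM with RHC80267, fell by 0.11 ± 0.04 (adjusted p = 0.0366), a call that did not hold in DESeq2, nor when any library other than RANKL replicate 1 was left out. A change in RNA says nothing of enzyme activity. Of the 15 diacylglycerol lipase and endocannabinoid genes 2 rose and 6 fell. Mgll, which degrades 2-arachidonoylglycerol, did not pass the test (-0.25 ± 0.30, adjusted p = 0.512), the cannabinoid receptor gene Cnr2 fell by 0.27 ± 0.05, and Napepld, which makes anandamide, rose by 0.45 ± 0.11. Of 28 genes that make, bind or consume diacylglycerol 7 rose and 11 fell. Rasgrp1, a Ras activator that binds diacylglycerol, had 23.9, 20.3 and 18.1 CPM with RANKL and 42.4, 51.5 and 45.6 CPM with RHC80267, and rose by 1.16 ± 0.08 (adjusted p = 2.42e-10). Rasgrp3 fell by 0.96 ± 0.20, the kinase gene Dgke by 0.72 ± 0.09 and the protein kinase C gene Prkcd by 0.24 ± 0.04, while Prkch rose by 0.41 ± 0.04. Of 21 prostaglandin and leukotriene genes 6 rose and 8 fell, with Hpgds, the prostaglandin D synthase, down by 0.60 ± 0.05 and Ptgs1 not past the test (0.07 ± 0.06, adjusted p = 0.372).

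Cholesterol synthesis genes fell in 16 of 23 tested members and rose in none (median -0.65). Cyp51, the lanosterol demethylase, had 61.8, 60.1 and 58.8 CPM with RANKL and 31.2, 24.5 and 31.4 CPM with RHC80267, and fell by 1.05 ± 0.07 (adjusted p = 3.52e-11). Sqle, the squalene epoxidase, fell by 0.98 ± 0.07 from 38.3 to 40.0 CPM to 16.7 to 22 CPM, and the isomerase gene Idi1 by 0.94 ± 0.07. The largest fall of the list was that of Hsd17b7, 1.39 ± 0.10. RHC80267 replicate 2 had the lowest value of the 3 in Cyp51, Sqle and Idi1. BMS309403 was not past the test in Cyp51 (-0.04, adjusted p = 0.771) or Sqle (-0.07, adjusted p = 0.631), and 15 of the 23 were lower with RHC80267 than with BMS309403. Of 15 genes of LXR, the oxysterol receptor, and of cholesterol efflux 7 fell and 2 rose, with the transporter gene Abca1 down by 0.62 ± 0.06 and Apoe up by 0.34 ± 0.05. Fatty acid genes showed no common direction, with 8 of 25 lower and 5 higher, or 3 higher without RHC80267 replicate 3. Pnpla2, the triglyceride lipase, rose by 0.44 ± 0.04 and the fatty acid binding protein genes Fabp3 and Fabp5 fell by 1.12 ± 0.20 and 0.74 ± 0.07. Fabp4, the target of BMS309403, did not pass the test (-0.06 ± 0.12, adjusted p = 0.693).

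Mitochondrial and growth genes rose by small amounts. Of 34 oxidative phosphorylation genes 32 rose and none fell (median 0.24), and of 17 tricarboxylic acid cycle genes 15 rose and none fell (median 0.28). Mdh2, the mitochondrial malate dehydrogenase, rose by 0.52 ± 0.05 from 259 to 299 CPM to 386 to 401 CPM, and Cyc1, a subunit of complex III, by 0.53 ± 0.04. Glycolysis genes did not move as a group, with 7 of 22 higher and 3 lower, and Gapdh not past the test (0.04 ± 0.04, adjusted p = 0.407). Of 23 mitotic genes 21 rose and none fell (median 0.41), or 1 fell without RANKL replicate 3. Prc1, which organises the central spindle, rose by 0.51 ± 0.07 from 17.4 to 20.4 CPM to 25.3 to 27.6 CPM. With BMS309403, 15 of these 23 genes fell and none rose, and 22 of 23 were higher with RHC80267 than with BMS309403. Of 27 replication genes 18 rose and 1 fell (median 0.33), or 2 without RANKL replicate 3. Cyclin E2 (Ccne2) rose by 0.85 ± 0.10 and the licensing factor Cdt1 fell by 0.32 ± 0.06. Of 19 chaperone genes of the endoplasmic reticulum 16 rose and none fell (median 0.26), or 1 fell without RHC80267 replicate 2, and Herpud1, of protein degradation there, rose by 0.62 ± 0.06. Of 20 amino acid response genes 11 rose and 3 fell, or 1 without RANKL replicate 1, with asparagine synthetase Asns up by 0.88 ± 0.08. Of 20 targets of NRF2, the regulator of the oxidative stress response, 9 rose and 3 fell (median 0.19), and of 26 lysosomal genes 7 rose and 11 fell (median -0.04).

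In the BCL2 family, which sets the threshold for apoptosis, 5 of 17 genes rose and 5 fell, or 3 rose without RHC80267 replicate 2. Bcl2l1, the survival protein BCL-XL, had 63.2, 62.2 and 62.0 CPM with RANKL and 21.7, 22.1 and 24.3 CPM with RHC80267. It fell by 1.46 ± 0.05 (adjusted p = 2.92e-15), while the M-CSF libraries had 81.5 to 86.5 CPM and the BMS309403 libraries 63.9 to 66.4 CPM. Bcl2 fell by 0.95 ± 0.11 and Mcl1 by 0.27 ± 0.03. The death-promoting Bmf rose by 0.92 ± 0.07 from 40.9 to 50.8 CPM to 81.9 to 86.5 CPM, and Bid fell by 0.52 ± 0.05.

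Genes known to respond to glucocorticoids split. Of 22 tested, 10 rose and 8 fell (median 0.11). Fkbp5, a chaperone of the glucocorticoid receptor and its classical target, had 14.2, 12.4 and 11.6 CPM with RANKL and 64.8, 62.3 and 70.0 CPM with RHC80267. It rose by 2.37 ± 0.07 (adjusted p = 8.48e-16), and neither the M-CSF (13.1 to 14.8 CPM) nor the BMS309403 libraries (10.5 to 11.8 CPM) overlapped it. Tsc22d3, the leucine zipper protein GILZ, rose by 1.09 ± 0.05 from 62.4 to 67.7 CPM to 133 to 141 CPM. Per1, a clock gene, rose by 1.23 ± 0.07, Klf9 by 0.95 ± 0.08, and the haemoglobin receptor gene Cd163 by 1.31 ± 0.16. In contrast Dusp1 (-0.10 ± 0.12, adjusted p = 0.494), Sgk1 (-0.06 ± 0.05, adjusted p = 0.348) and Zbtb16 (0.31 ± 0.28, adjusted p = 0.374) did not pass the test, and the decoy receptor gene Il1r2 fell by 1.48 ± 0.20. The palindrome GNACANNNTGTNC, searched in the same windows, was in 0.303% of all promoters. It was in 0 of the 213 promoters of genes that rose by more than 2-fold, in 3 of the 330 of genes that fell by more than 2-fold, and in those of 2 of the 17 listed genes with a promoter, Mt1 and Sgk1, neither of which was called. Matches are too few for a comparison.

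Macrophage surface genes were mixed. Of 23 scavenger and efferocytosis receptors 5 rose and 12 fell. Marco, which takes up bacteria and particles, had 7.16, 6.24 and 6.72 CPM with RANKL, 52.0, 38.5 and 41.8 CPM with RHC80267 and 46.8 to 64.8 CPM with M-CSF alone. Mertk, which clears dying cells, rose by 0.62 ± 0.06, while the mycobacterial glycolipid receptor Clec4e fell by 1.41 ± 0.09 from 60.0 to 65.4 CPM to 20.6 to 27.2 CPM. Of 18 complement genes 4 rose and 8 fell. The complement-restraining membrane protein gene Cd55 rose from 6.39, 7.51 and 7.72 CPM to 48.3, 41.7 and 48.8 CPM, and Cfb, of the alternative pathway, fell by 2.14 ± 0.19. Of 23 macrophage identity genes 17 fell and 3 rose (median -0.47), among them Fcgr1, the high-affinity IgG receptor, which fell by 1.29 ± 0.05 from 77.4 to 85.3 CPM to 31.9 to 35.7 CPM. F13a1, a transglutaminase of clotting and matrix, rose by 1.02 ± 0.04 from 287 to 294 CPM to 579 to 597 CPM, against 609 to 677 CPM in M-CSF alone. Thbs1, the matrix protein thrombospondin 1, fell by 1.45 ± 0.09 from 585 to 716 CPM to 225 to 283 CPM.

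**Figure D5:**
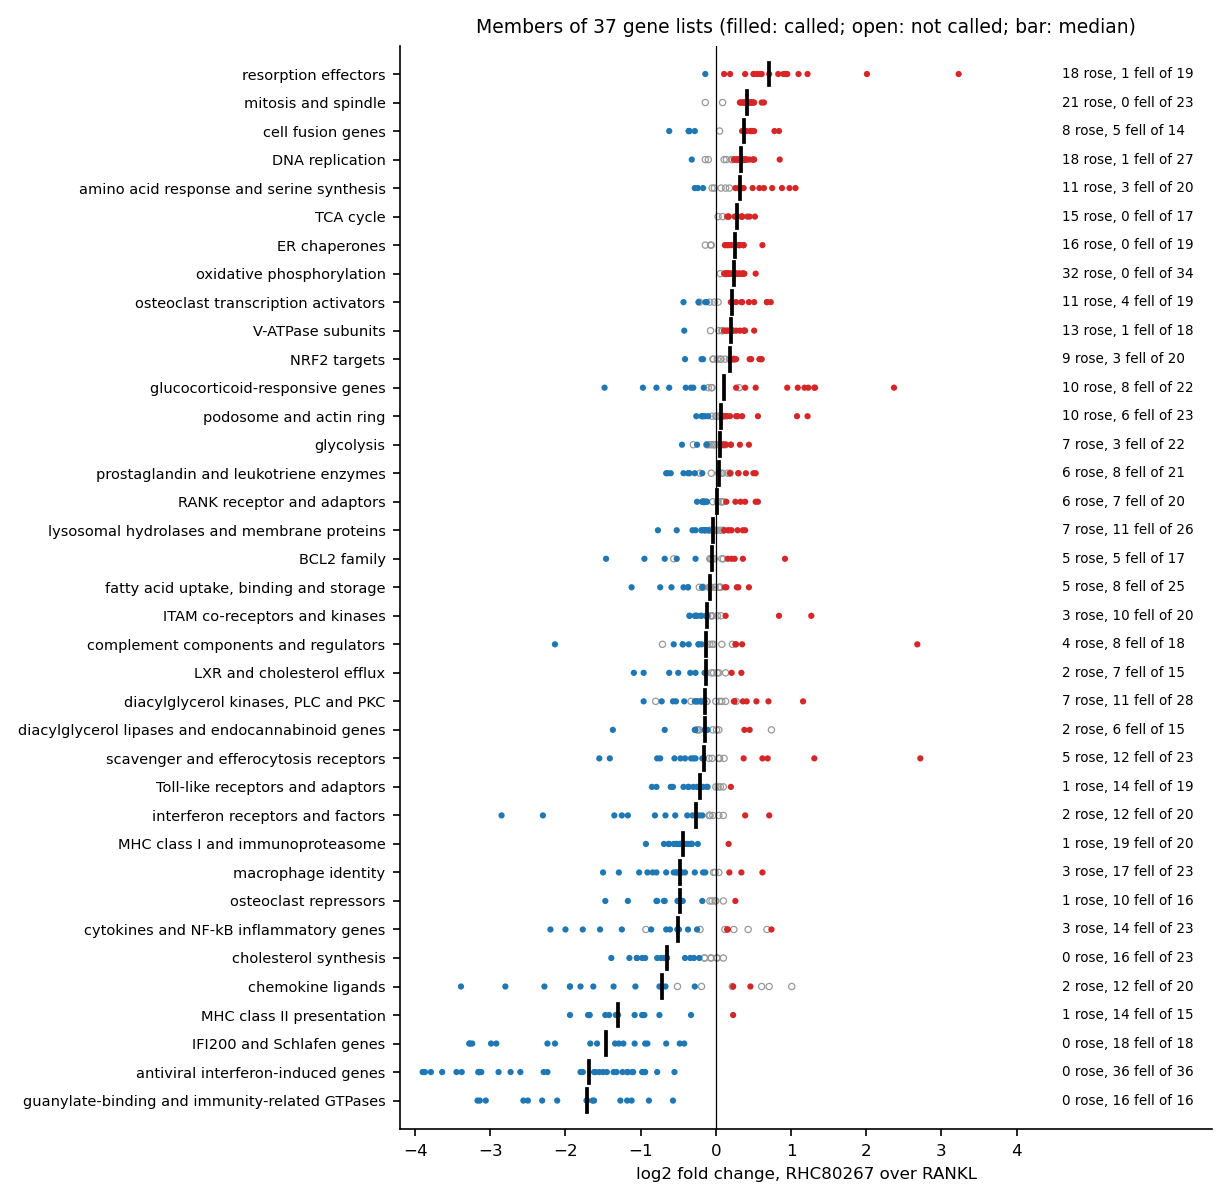
Log2 fold change, RHC80267 over RANKL (horizontal axis), of every tested member of 37 gene lists, ordered by the list's median (black bar); filled points are called genes (red higher, blue lower), open points genes not called, and the counts stand at the right. The antiviral, IFI200 and GTPase lists lie wholly below 0, with medians of -1.69, -1.46 and -1.72, and the resorption effectors have the highest median, 0.71.

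The cell types that the cultures could hold were checked by marker genes, given as summed TPM, transcripts of a gene per 1000000 transcripts. The 8 osteoclast markers summed to 7400 to 9150 with RANKL and 15200 to 17000 with RHC80267, and to 61.5 to 70.1 with M-CSF alone. The 8 macrophage markers summed to 41600 to 44200 with RANKL and 33700 to 35000 with RHC80267, so macrophage markers were present in both groups. Most of that sum was Lyz2, with a mean of 37500 TPM with RANKL and 29100 TPM with RHC80267. Of the 8 markers 5 fell and 1, Mertk, rose. Csf1r (adjusted p = 0.51) and Cd68 (adjusted p = 0.513) did not pass the test. Neutrophil markers moved with the groups: 8 of 10 fell and none rose, and their sum was 8610 to 10300 with RANKL and 4090 to 6310 with RHC80267. Highest in TPM among them were the calcium-binding protein genes S100a8 (-0.76) and S100a9 (-0.84), while Camp (-1.21) and Elane (-1.15) fell by more. The defining neutrophil gene Ly6g was at 2.79 TPM with RANKL and 3.01 TPM with RHC80267 and did not pass the test (adjusted p = 0.881). Of 9 dendritic cell markers tested 5 fell, with sums of 42.0 to 46.4 and 26.8 to 29.8, and these moved beside the MHC class II genes. Of the T and NK cell markers 3 were tested and 2 fell, Nkg7 and Cd4, the latter of which myeloid cells also express. Nkg7 averaged 1.9 TPM with RANKL and 0.273 TPM with RHC80267 (-2.74, adjusted p = 0.00145). Cd3e, Cd3d and Cd3g were too low to test. Ncr1 was at 0 in all 6 libraries, as was the endothelial gene Tek. Markers of B and plasma cells, mast cells, erythroid cells, adipocytes and endothelium summed to at most 17.0, 15.1, 12.4, 0.54 and 16 TPM in any of the 6. Of those tested, 3 of 5 B and plasma cell markers fell and 1 rose, and 1 of 5 mast cell markers fell. Erythroid and megakaryocyte markers fell in 3 of 4 and rose in 1, with sums of 11.9 to 12.4 and 3.27 to 7.0 TPM. All 3 endothelial markers tested fell, with sums of 13.9 to 16 TPM with RANKL and 6.3 to 7.08 TPM with RHC80267. The part of these markers in the results above was not tested.

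Some large changes rested on few libraries or reads. Col1a1, a collagen I chain of stromal cells and osteoblasts, had 4.32, 1.16 and 2.57 CPM with RANKL and 21.1, 6.10 and 4.72 CPM with RHC80267, so replicate 1 stood apart. Its change of 1.98 ± 0.44 (adjusted p = 0.000792) was 1.01 (adjusted p = 0.0106) without that library. Col1a2 went from 2.01 to 0.86 (adjusted p = 0.0234), and Sparc from 1.97 to 0.84, where the call was lost (adjusted p = 0.056). The 11 stromal and osteoblast markers in the table summed to 31.1 TPM in that library, 10.1 and 9.05 TPM in the other two and 4.99 to 9.24 TPM with RANKL, while Alpl and Sp7 averaged 0.0267 and 0.103 TPM with RHC80267. Other rises were present in each of the 3 RHC80267 libraries. Myo1d, an unconventional myosin, rose by 1.09 ± 0.08 from 95.3 to 129 CPM to 228 to 248 CPM, and Mst1r, the receptor kinase RON, by 1.07 ± 0.07 from 40.3 to 51.0 CPM to 87.7 to 102 CPM. Sema3a, a secreted guidance protein, rose by 1.78 ± 0.20 from 1.12 to 2.57 CPM to 6.19 to 7.52 CPM, and Slc13a3, a dicarboxylate transporter, by 2.08 ± 0.09 from 20 to 23.3 CPM to 74.2 to 102 CPM.

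Hmga1b had 7.82, 8.34 and 8.79 CPM with RANKL and 0, 0.272 and 0.163 CPM with RHC80267, and fell by 5.78 ± 0.31. It is a near-identical copy of the chromatin protein gene Hmga1, which fell by 0.58 ± 0.04 (253 to 271 CPM and 173 to 175 CPM), and how the estimate divides their reads is uncertain. Sparc, Hmga1 and a further 2 genes fall outside both the rule by which genes were named and the gene lists, and were chosen after their values were seen. Pcdh10, a protocadherin of cell adhesion, had 130 counts over the RANKL libraries and 0 over the RHC80267 libraries, and was at least 42.7-fold lower against a floor of 3 counts over the group, which covers counting error only. Arg1, an arginine-degrading enzyme of alternatively activated macrophages, had 0.820, 0.607 and 0.560 CPM with RANKL and 0.754, 6.87 and 34.2 CPM with RHC80267, so the groups overlapped. The fitted change of 4.38 ± 0.90 (adjusted p = 0.000351) was 2.51 (adjusted p = 0.00363) without RHC80267 replicate 3, and limma-voom did not call it (3.05, adjusted p = 0.0858).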

How the data were processed

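RNA was extracted with Trizol and sequenced as mRNA libraries, 3 per group. The deposited table gives expected counts per gene and library, made by the authors with Bowtie2 and RSEM 1.3.1, and TPM values of the same libraries, per the file headers and the submitters' processing notes. It also holds the authors' log2 fold changes and q-values from DESeq2 1.4.5, which were used only where named. For the genome build and the aligner settings, the sources used here give nothing. Another 24 columns of per-sample values were not used. RSEM divides reads between similar genes, which makes near-identical copies uncertain.

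Expected counts were rounded and fitted with edgeR 4.0.16 (R 4.3.3, limma 3.58.1) over all 12 libraries, with TMM factors of 0.9783 to 1.037, a biological coefficient of variation of 0.0371 and 8 residual degrees of freedom. edgeR's expression filter kept 12168 genes and removed 4402. The p-values were adjusted by the Benjamini-Hochberg method with a threshold of 0.05, and the scripts were tested on simulated data. A total of 37 gene lists held 777 genes, of which 743 were tested. The comparison and the lists were chosen with earlier results of these data known. Named genes were 13 fixed ones and the 8 highest and 8 lowest changes among called genes of at least 5 CPM without overlap. The 6 with the highest CPM that changed more than 2-fold each way were added. So were the 3 smallest p in each list and its strongest opposite member. Other list members, such as Klf9 and Ccl2, were given to complete a family or were picked with their values known. By the identifier, 16522 genes matched RefSeq, 77.7% of them at the same position as in the deposited table. The labels give 2 days of treatment in the sample descriptions and 4 in the growth protocol. Alternatives were 13 settings: DESeq2 1.42.0, its size factors in edgeR, no filter, a filter of 1 CPM in 3 libraries, only the compared groups, limma-voom, a replicate block and each of 6 libraries left out. Values of some list members are not reported here.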

Additional observations from a re-analysis of the deposited data

How the results depend on the processing

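Of the 6074 called genes, 4410 (72.6%) were called in all 13 alternatives and 4476 (73.7%) in all 6 fits that left out a library, and none was called in the opposite direction. DESeq2 kept the fewest calls of the alternatives with all libraries, 5200 (85.6%). Counts of a few genes within lists moved. With DESeq2, 1 chemokine gene and 3 BCL2 family genes rose. Without the filter, 1 endoplasmic reticulum chaperone fell, and with 1 CPM in 3 libraries 1 chaperone and 2 replication genes fell. With only the compared groups, 5 glycolysis genes, 1 chaperone and 2 replication genes fell. Over the fits that each left out 1 library, the number that rose was 1 to 2 for chemokines, 1 to 2 for osteoclast repressors, 0 to 1 for MHC class I genes, 3 to 5 for the BCL2 family, 1 to 2 for Toll-like receptor genes and 3 to 5 for fatty acid genes. The number that fell was 1 to 3 for the amino acid response, 2 to 4 for transcription activators, 3 to 5 for RANK adaptors, 0 to 1 for mitosis, 1 to 2 for replication and 0 to 1 for chaperones. With all called genes that fell, of any size, 5.93% of promoters held the interferon-stimulated response element core and 6.8% the gamma-activated site core, because genes with small changes enter the group.

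The labels do not say whether replicate numbers pair the libraries, and the values did not settle it. Deviations of libraries with the same number correlated at 0.094, 0.034 and 0.016. Those with different numbers correlated at -0.062 to 0.035, and not every library correlated best with its own number. With a replicate block, 5965 (98.2%) of the calls were kept, 2 osteoclast repressors rose, and Irf8 was called at 0.10. Depth limits the low genes, of which 18% were called below 1 CPM.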
